A study of Mus musculus with 12 samples.

Results

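The matrix metalloproteases (MMPs), their relatives of the ADAM and ADAMTS families and the tissue inhibitors of metalloproteases (TIMPs) were followed across 3 treatments of mouse kidney tubuloids. Members were the protein-coding genes whose symbol begins with Adamts, or with Mmp, Adam or Timp followed by a digit, and 61 of the 20819 genes met this rule. They were 18 MMPs, 16 ADAMs, 18 ADAMTS proteases, 5 ADAMTS-like proteins and 4 TIMPs. Tubuloids are clusters of renal tubular epithelial cells, here primary cells from the renal cortex of 4 wildtype mice, cultured in Matrigel. The groups were tubuloids given myoglobin with 100 nM dexamethasone, tubuloids given myoglobin, and tubuloids given vehicle, with 4 libraries each, and RNA was taken after 12 h. Myoglobin with dexamethasone is also called both agents here. Myoglobin, the oxygen-binding haem protein of muscle, was used to injure the tubules, and dexamethasone is a synthetic glucocorticoid. The dose of myoglobin is not given in the sources used here. No group with dexamethasone alone was analysed here, so dexamethasone can be read only on top of myoglobin.

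Matrix metalloproteases are zinc enzymes that cut collagens, gelatins, proteoglycans and other secreted proteins. Most are made as inactive precursors, some are secreted and others are held on the cell surface. ADAM proteases sit in the membrane and release the outer parts of other membrane proteins, a step called shedding. ADAMTS proteases are secreted and bind to the matrix, where they cut proteoglycans or trim procollagens, and the ADAMTS-like proteins share their matrix-binding parts but have no protease domain. TIMPs block the active site of these enzymes, and the balance of protease and inhibitor bears on how fast the basement membrane around a tubule is turned over. Messenger RNA does not show how much of a precursor is activated.

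The values are normalised read counts per gene, deposited as whole numbers. They sum to 5.338 to 5.725 M per library for both agents, 5.324 to 5.348 M for myoglobin and 5.253 to 5.295 M for vehicle. Reads before scaling were estimated at 3.254 to 5.534 M, 5.284 to 5.923 M and 5.506 to 5.867 M per library in the same groups. Replicate 4 of myoglobin with dexamethasone stood apart from the rest: its estimated reads were the 3.254 M just given, and it had 2179 genes with a value of 0, where the other 11 libraries had 1051 to 1544. Its median gene deviated from the other 3 libraries of its group by -0.21 on the log2 scale where the value per exonic base was below 0.03, and by 0.40 where it was above 0.3. The tubular epithelial label was checked against 7 markers, all well measured, with Cdh1, the epithelial cadherin, at means of 2689, 2306 and 2414 in the 3 groups. Of 4 proximal tubule markers, Cubn, Slc34a1 and Slc5a2 were below 10 in every library, while Lrp2, megalin, averaged 332, 387 and 233 and rose by 0.73 ± 0.10 with myoglobin (limma adjusted p = 9.17e-05) and by 0.50 ± 0.10 with both agents (adjusted p = 0.00166). Markers of other cell types also differed between the groups. The summed value of 9 fibroblast and stroma markers was 179 to 275 per library with myoglobin and dexamethasone, 295 to 349 with myoglobin and 406 to 478 with vehicle, and 2 of the 9, Col1a1 and Lum, were below 10 throughout. Most of this sum was Rgs5, at means of 127, 172 and 267. Of the 7 tested, 4 were called lower and 0 higher with both agents against vehicle. Dcn, at means of 13.5, 28.8 and 18.3, and Pdgfrb, at 14.0, 17.8 and 15.8, were highest with myoglobin and not called. The sum of 4 podocyte markers was 318 to 408, 323 to 537 and 430 to 702 in the same groups. Itgam and S100a9, markers of myeloid cells, were below 10 throughout, and the summed value of the immune markers was 506 to 556, 442 to 487 and 548 to 618, so that myoglobin lay below both other groups. Most of this sum was Ptprc, the general leukocyte marker, at means of 423, 342 and 447. Ptprc fell by 0.38 ± 0.06 with myoglobin (adjusted p = 0.000408) and rose by 0.31 ± 0.06 when dexamethasone was added (adjusted p = 0.00767). The other tested immune markers had another order. Cd68 averaged 68.0, 82.3 and 98.8 and fell by 0.52 ± 0.13 with both agents against vehicle (adjusted p = 0.00737). Adgre1 averaged 7.75, 14.0 and 8.75 and was not called. Of 6 endothelial markers Flt1 alone reached 10, and it fell by 0.66 ± 0.22 with both agents against vehicle (adjusted p = 0.0356). The part of these cells, and of the library that stood apart, in the changes described here was not tested beyond the values given, and in bulk RNA fewer cells of a type and less RNA per cell cannot be told apart.

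Levels of different genes were compared as the deposited value per kilobase of exon. The membrane sheddases Adam10, Adam9 and Adam17, the membrane-bound Mmp14 and Mmp15 and a few secreted members made up the top of the order. Some other membrane-bound members were low, such as Mmp17 at 7.59 per kilobase in vehicle libraries. In vehicle libraries Mmp7, matrilysin, a small secreted protease typical of epithelium, led with 465 per kilobase, at the 99.8th percentile of protein-coding genes. Adam10, a sheddase of Notch receptors and cadherins, followed with 234 per kilobase. Timp2, a secreted inhibitor that also helps membrane-bound MMPs to activate Mmp2, stood at 213 per kilobase, and Adam9, another membrane sheddase, at 206 per kilobase. Below these came Mmp14 with 156 and Mmp15 with 147 per kilobase, both anchored in the membrane, Adamts1, a versican-cleaving protease, with 138, and Adam17, the sheddase of tumour necrosis factor, with 119. Among the inhibitors Timp3 and Timp1 were at 59.4 and 49.3 per kilobase in vehicle libraries, and Timp4 at 0.721. The 2 gelatinases, Mmp2 and Mmp9, which cut denatured and basement membrane collagen, stood at 33.7 and 12.1 per kilobase. Mmp7 remained first with myoglobin and dexamethasone, at 653 per kilobase, and with myoglobin, at 497 per kilobase.

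**Figure D1:**
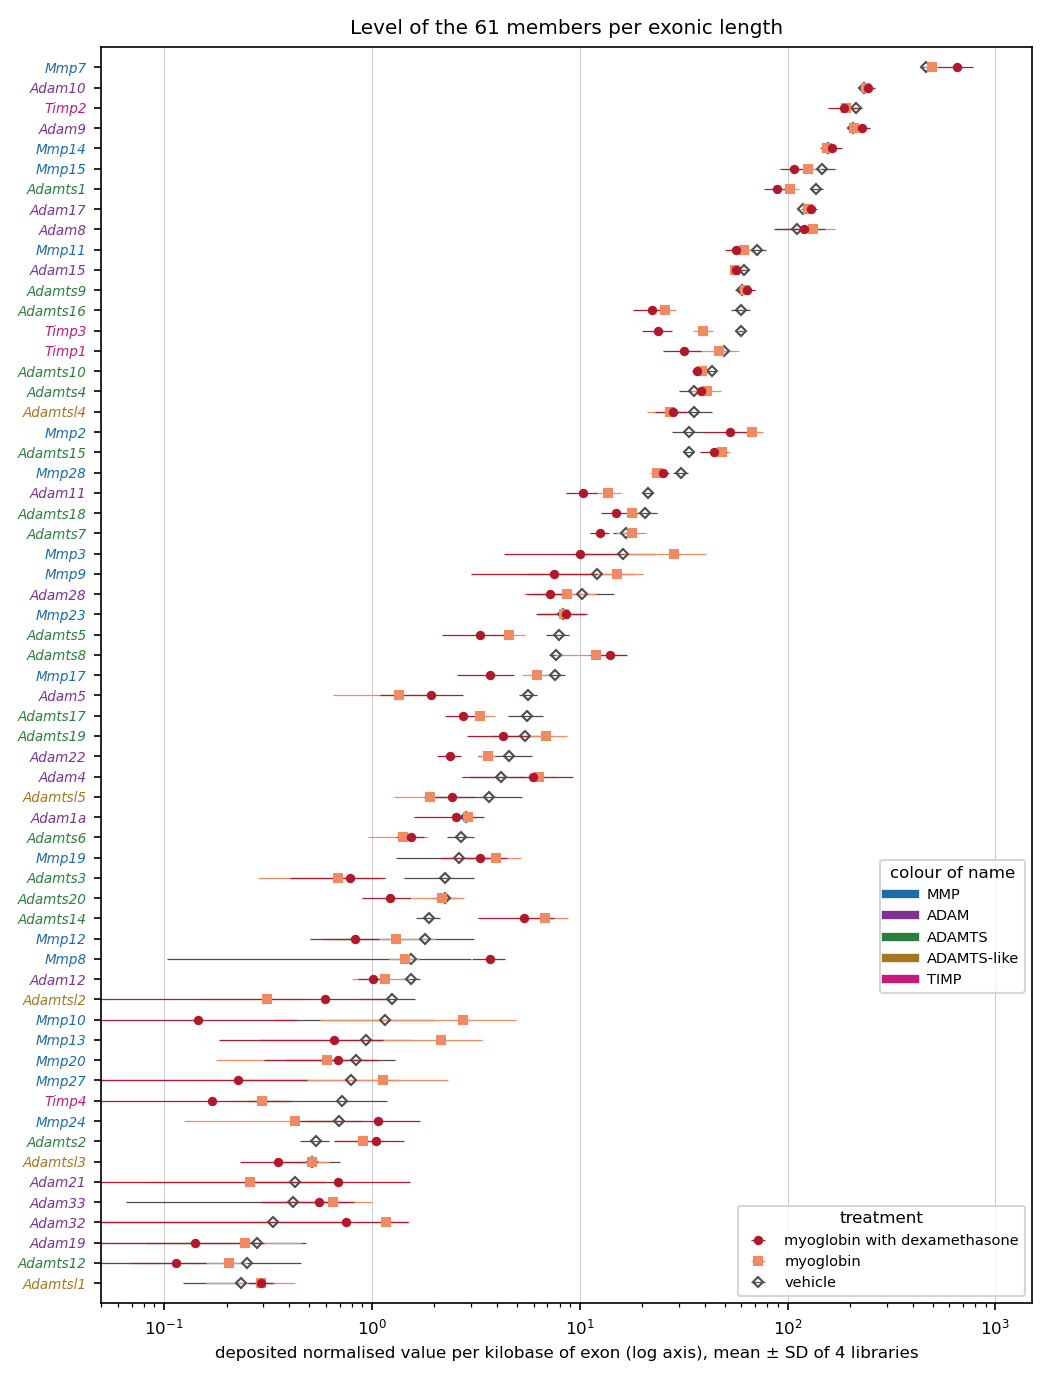
Deposited normalised value per kilobase of exon (log axis) of the 61 members, as the mean ± SD of 4 libraries, for myoglobin with dexamethasone (filled circles), myoglobin (squares) and vehicle (open diamonds), ordered by vehicle; bars that reach past the left edge are not drawn further. Mmp7 is at the top with 465 per kilobase in vehicle libraries, Timp3 and Adamts16 are well apart from vehicle in both treated groups, and the lowest members have bars as wide as their levels.

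Of the 61 members, 45 reached 10 in at least 4 libraries and were tested, and 25 of the 45 were called in at least 1 of the 3 comparisons (limma, Benjamini-Hochberg adjusted p below 0.05 over 14558 genes). Members that passed only through a group where they were high are among the 45, so these counts are descriptions of the measured members and not of the families. Myoglobin with dexamethasone against myoglobin asks what the glucocorticoid adds to the injury, and here 1 member rose and 4 fell, 11.1% of the 45, against 6.98% of all genes tested, of which 3.08% rose and 3.9% fell. The median change of the members was -0.20 on the log2 scale, against 0.006 for all genes. Myoglobin against vehicle asks what the injury does, and 3 members rose and 9 fell, 26.7%, against 18.3% of all genes tested. The medians there were -0.09 for the members and 0.003 for all genes. Myoglobin with dexamethasone against vehicle gives both agents together, and 6 members rose and 18 fell, 53.3%, against 28.6% of all genes tested, with medians of -0.34 and 0.002. The comparison of both agents with vehicle shares its libraries with the other 2 and is not independent of them.

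The members leaned to lower values. Lower calls took 40.0% of the tested members with both agents against vehicle, where 14.6% of all genes were lower, and higher calls took 13.3%, where 13.9% of all genes were higher. For myoglobin alone the 9 members that fell stand against 9.62% of all genes, and the 3 that rose, 6.67% of the members, against 8.71%. Thinly covered genes were also lower more often in general: below 0.03 per exonic base, where 25 of the 45 members lie, 21% of 4478 genes were lower and 6.07% higher with both agents against vehicle, and 11 of the 25 members were lower and 2 higher. Among the 20 members covered more densely, 7 were lower and 4 higher, where 11.8% and 17.4% of all such genes were. Scaled to library totals, the 2029 higher and 2132 lower calls over all genes became 1565 and 2648, and those of the members 5 and 19. Without replicate 4 of myoglobin with dexamethasone, 1 member was higher and 3 were lower when dexamethasone was added to myoglobin, 3 were higher and 11 lower with myoglobin against vehicle, and 8 were higher and 18 lower with both agents against vehicle. The p-values measure only the spread between these libraries, since the labels do not say which mouse each library came from.

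**Figure D2:**
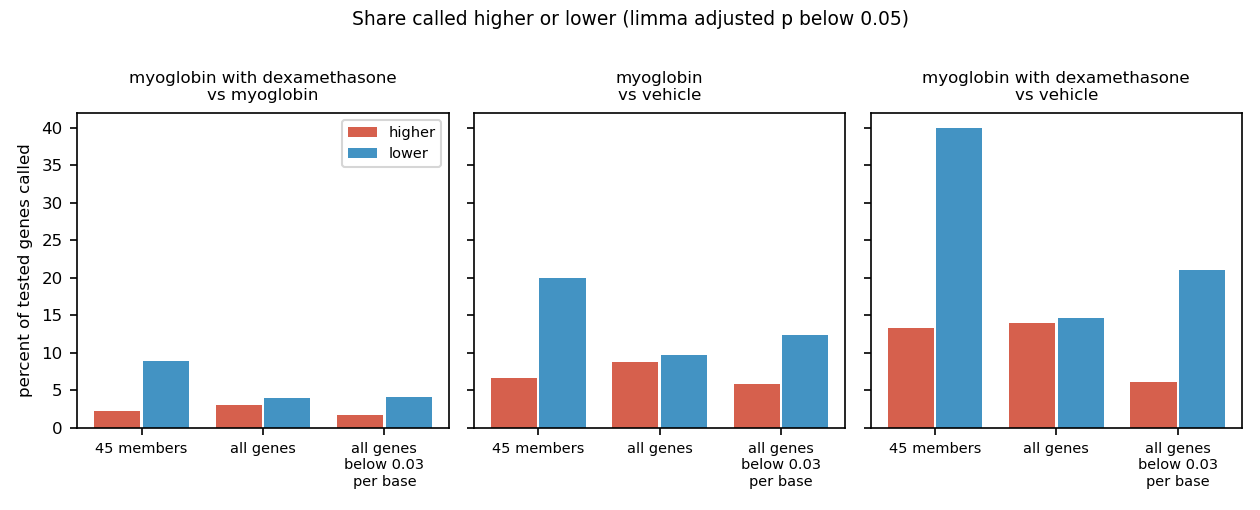
Percent of tested genes called higher (red) or lower (blue) in each comparison, for the 45 tested members, for all 14558 genes tested and for the 4478 genes below 0.03 per exonic base. The lower bar of the members reaches 40.0% with both agents against vehicle, where all genes reach 14.6% and thinly covered genes 21%.

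**Figure D3:**
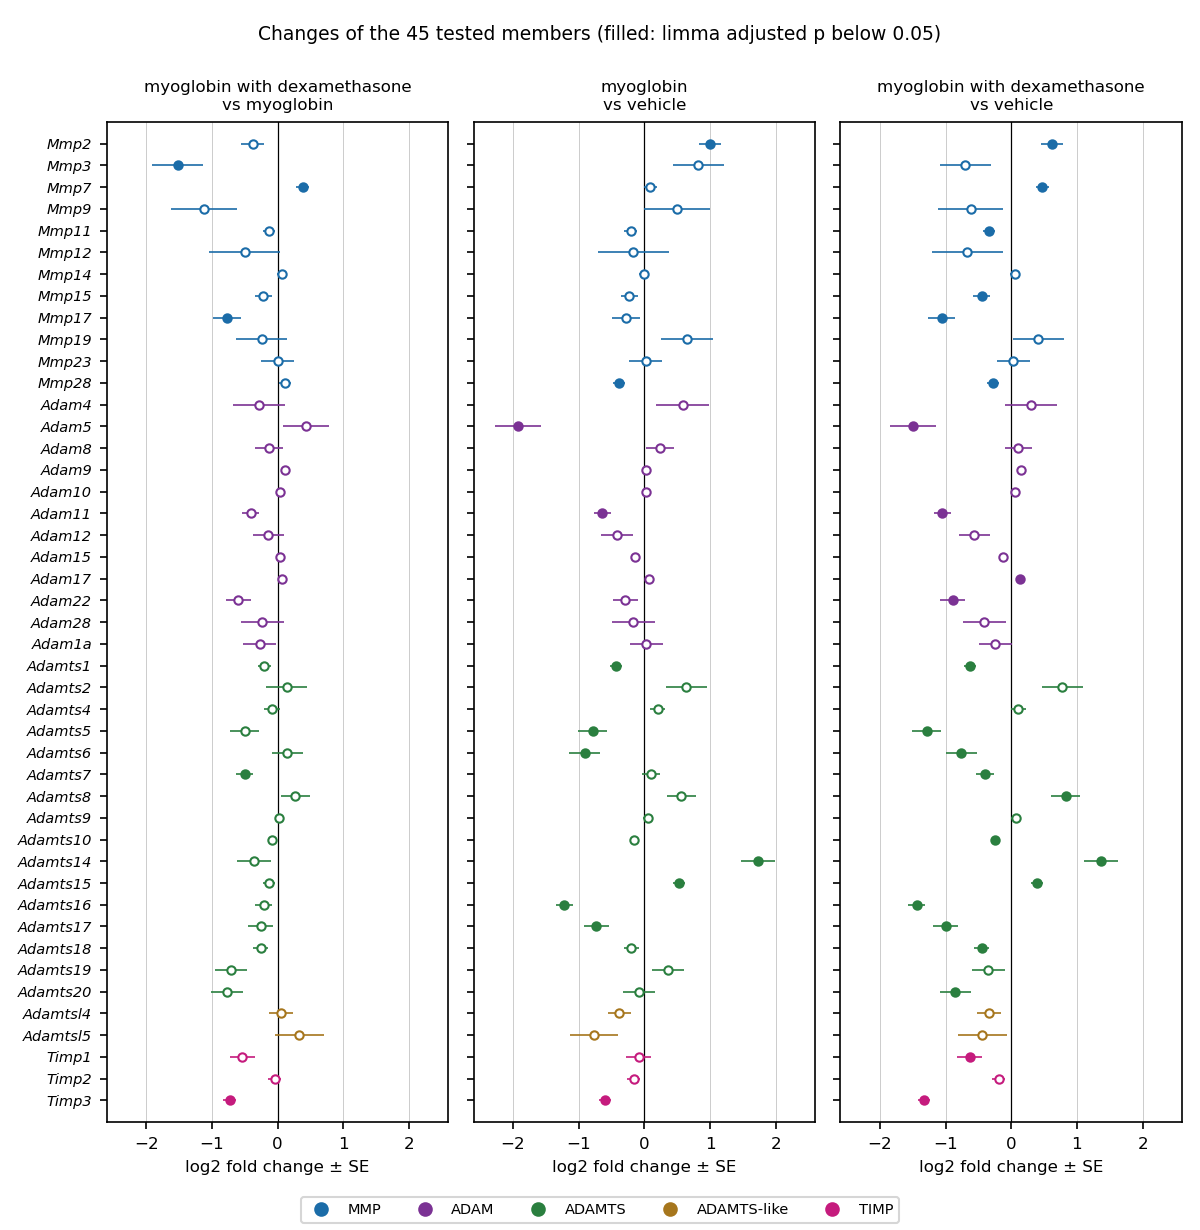
Log2 fold change ± SE of each of the 45 tested members in the 3 comparisons, coloured by family, with filled points for a limma adjusted p below 0.05. Timp3 lies left of 0 and is filled in all 3 panels, Adamts14 and Mmp2 are to the right in both comparisons with vehicle, and Mmp7 is the filled point to the right of 0 when dexamethasone was added to myoglobin.

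Of the 3 tested inhibitors, 1 fell when dexamethasone was added, 1 with myoglobin and 2 with both agents against vehicle, and Timp3 fell in each comparison. Of all genes tested, 3.9%, 9.62% and 14.6% fell in these comparisons, and 3 genes are too few for shares to be compared. Timp3 binds to the matrix and, unlike the other TIMPs, also blocks Adam17 and the proteoglycan-cutting ADAMTS proteases. Its values were 169, 240, 177 and 190 with myoglobin and dexamethasone, 276, 346, 309 and 352 with myoglobin, and 483, 500, 484 and 469 with vehicle. The 3 groups did not overlap, with vehicle highest and the group with both agents lowest. The log2 fold change was -0.73 ± 0.10 (SE) when dexamethasone was added to myoglobin (limma adjusted p = 0.000301), -0.60 ± 0.10 with myoglobin against vehicle (adjusted p = 0.000336) and -1.33 ± 0.10 with both agents against vehicle (adjusted p = 9.18e-08). Timp3 was also the only one of the 5 members called for added dexamethasone that was called in every fit that left out 1 library, where its change lay between -0.84 and -0.67. It shares 1733 bases, 21.3% of its exons, with Syn3 on the opposite strand. Syn3 averaged 56.5, 63.3 and 73.8 in the 3 groups, and whether the authors counted by strand is not given in the sources used here.

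Timp1, a secreted inhibitor known to be induced in many injured tissues, was called in 1 comparison. Its values were 34, 26, 21 and 32 with both agents, 41, 56, 38 and 32 with myoglobin, and 42, 41, 44 and 48 with vehicle. The libraries with both agents were all below those with vehicle, and the myoglobin libraries overlapped each of the other groups. Timp1 fell with both agents against vehicle by 0.63 ± 0.19 on the log2 scale (limma adjusted p = 0.0188), while the other changes were -0.54 ± 0.19 for added dexamethasone (adjusted p = 0.0962) and -0.09 ± 0.19 for myoglobin (adjusted p = 0.789). The call was lost without vehicle replicate 4 (adjusted p = 0.0513), with quantile normalization (0.103) and without replicate 3 of both agents (0.0557).

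Timp2 had values of 616, 728, 681 and 895 with both agents, 634, 764, 758 and 824 with myoglobin, and 757, 814, 841 and 906 with vehicle. The groups overlapped, and replicate 1 was the lowest and replicate 4 the highest library in each of them. No comparison was called for Timp2, whose change was -0.19 ± 0.10 with both agents against vehicle (limma adjusted p = 0.152) and -0.30 ± 0.08 without replicate 4 of that group, where it was called (adjusted p = 0.0115). Timp4, known mostly from heart, was listed at 0, 3, 1 and 0 with both agents, at 2, 2, 1 and 2 with myoglobin, and at 6, 3, 7 and 1 with vehicle, below the limit for testing.

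**Figure D4:**
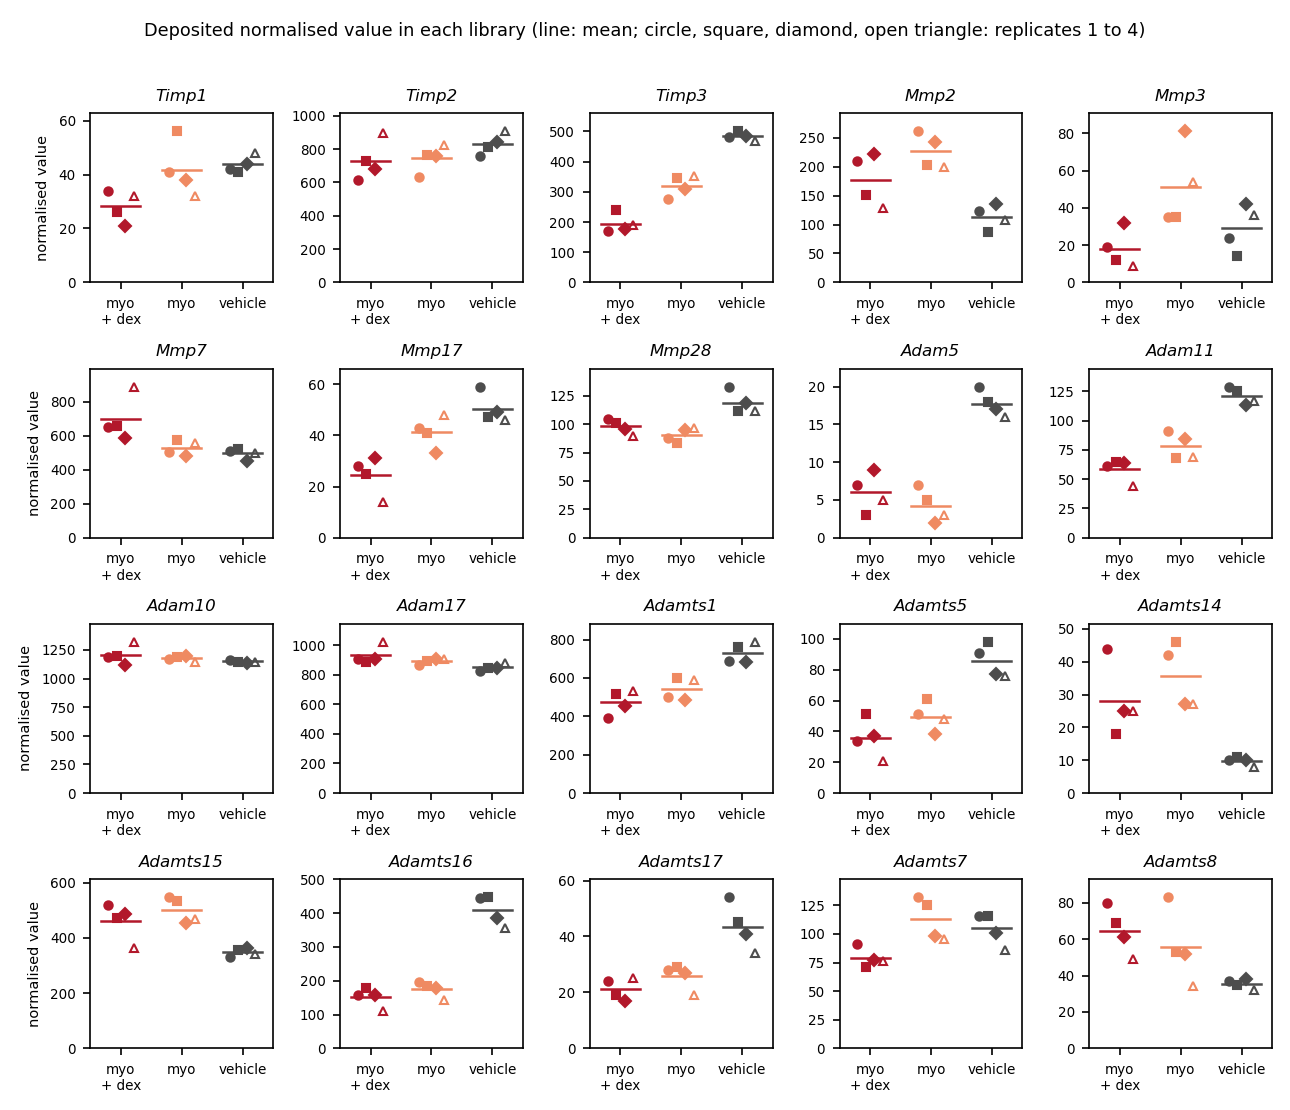
Deposited normalised value in each library for 20 members, in panels that each start at 0, with myoglobin and dexamethasone (red) left of myoglobin (orange) and vehicle (grey), the mean as a line and replicates 1 to 4 as circle, square, diamond and open triangle. Timp3 is lowest with both agents and highest with vehicle, with no overlap of the 3 groups, Mmp2 and Adamts14 are above vehicle with myoglobin, and the open triangle of replicate 4 is the highest point for Mmp7, at 890, and the lowest for Mmp17, at 14, with myoglobin and dexamethasone.

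The MMPs were the family with calls in both directions in every comparison. Of 12 tested, 1 rose and 2 fell when dexamethasone was added, 1 rose and 1 fell with myoglobin, and 2 rose and 4 fell with both agents against vehicle. All genes tested were called at 6.98%, 18.3% and 28.6% in these comparisons, and the MMPs at 25%, 16.7% and 50%, so the share with myoglobin was near that of all genes. The 8 MMP members on chromosome 9 lie in a row between positions 7272514 and 7699585 of the mm10 build (427.1 kb), all on the plus strand. In order they are Mmp13, Mmp12, Mmp3, Mmp10, Mmp8, Mmp27, Mmp20 and Mmp7. The row is not the whole locus. Mmp1b, which overlaps Mmp12 on the opposite strand in GENCODE M21, was not among the genes with values. Mmp13 is a collagenase, Mmp3 and Mmp10 are stromelysins and Mmp7 is matrilysin. RefSeq promoter windows (build GRCm38.p6, 250 bases before to 50 after the start of a transcript) were searched for TGANTCA on both strands. This pattern is looser than the core bound by AP-1 transcription factors, TGACTCA or TGAGTCA. AP-1 sites are known control elements of collagenase and stromelysin promoters, and the glucocorticoid receptor is known to repress some promoters driven by AP-1, which is why the stretches are shown. The motif was found in 6 of the 8 genes, against 8.97% of all 27025 genes with windows of the same length (7.81% of 32851 windows), and in 7 of the 39 members with a window, the other being Adam19. The 6 stretches, of 41 bases each, are given 5′ to 3′ on the plus strand with the match in capitals. They lie at chr9:7272462-7272502 for Mmp13, chr9:7347313-7347353 for Mmp12, chr9:7445759-7445799 for Mmp3, chr9:7502262-7502302 for Mmp10, chr9:7628119-7628159 for Mmp20 and chr9:7692010-7692050 for Mmp7.
Mmp13: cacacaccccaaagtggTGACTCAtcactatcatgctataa
Mmp12: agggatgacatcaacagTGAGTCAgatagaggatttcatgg
Mmp3: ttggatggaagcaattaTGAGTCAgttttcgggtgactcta
Mmp10: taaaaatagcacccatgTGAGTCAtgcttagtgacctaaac
Mmp20: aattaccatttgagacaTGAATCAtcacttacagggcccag
Mmp7: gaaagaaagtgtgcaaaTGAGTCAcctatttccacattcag
The match starts 35 bases before the transcript start in Mmp13, 44 in Mmp12, 46 in Mmp3, 63 in Mmp10, 95 in Mmp20 and 63 in Mmp7. For Mmp12 it was in the window of a later transcript start, chr9:7347124-7347423, and the window at chr9:7344147-7344446 had no match. The Mmp20 match, TGAATCA, fits only the looser pattern. TATAAA, the TATA box, was in windows of 7 of the 8 genes and of 9 of the 39 members, against 15.7% of all genes. The full palindromic glucocorticoid response element, AGAACA, then 3 bases of any kind, then the reverse complement of AGAACA, was in 0 of the 39 members and in 0.0111% of all genes, which says only that these letters are not in these windows. The 8 genes are neighbours of the same family and not independent draws, so their shares beside those of all genes are descriptions only. The motifs were chosen with the values known, and a match is a run of letters and not a measured site.

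Within this row Mmp3 and Mmp7, both with the motif, moved in opposite directions when dexamethasone was added, so the 250 bases before each start are shown, with the AP-1 type match in capitals. They lie at chr9:7445572-7445821 for Mmp3 and chr9:7691840-7692089 for Mmp7, on the plus strand.
Mmp3: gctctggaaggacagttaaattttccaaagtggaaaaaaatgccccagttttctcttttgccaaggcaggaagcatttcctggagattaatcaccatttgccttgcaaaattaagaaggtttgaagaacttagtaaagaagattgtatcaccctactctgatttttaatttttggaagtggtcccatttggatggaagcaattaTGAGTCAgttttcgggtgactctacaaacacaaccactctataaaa
Mmp7: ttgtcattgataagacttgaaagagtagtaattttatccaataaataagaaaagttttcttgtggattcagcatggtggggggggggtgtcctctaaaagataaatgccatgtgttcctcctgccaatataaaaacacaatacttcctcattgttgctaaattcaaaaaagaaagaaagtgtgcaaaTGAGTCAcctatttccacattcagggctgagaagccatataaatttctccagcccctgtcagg
Mmp3, stromelysin-1, cuts proteoglycans and activates other MMPs. Its values were 19, 12, 32 and 9 with both agents, 35, 35, 81 and 54 with myoglobin, and 24, 14, 42 and 36 with vehicle. Every library with both agents was below every library with myoglobin alone, and vehicle overlapped both. Mmp3 fell by 1.52 ± 0.39 on the log2 scale when dexamethasone was added (limma adjusted p = 0.0277), and its other changes were 0.82 ± 0.39 for myoglobin (adjusted p = 0.169) and -0.70 ± 0.39 for both agents against vehicle (adjusted p = 0.191). The call was lost without myoglobin replicate 3 (adjusted p = 0.0927) or 4 (0.082), and without replicate 2 (0.0712) or 4 (0.0569) of myoglobin with dexamethasone, with changes of -1.47 to -1.26.

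Mmp7 had values of 653, 659, 587 and 890 with both agents, 507, 576, 480 and 560 with myoglobin, and 514, 525, 452 and 497 with vehicle. The libraries with both agents were above all others, and myoglobin and vehicle overlapped. Mmp7 rose by 0.38 ± 0.10 when dexamethasone was added (limma adjusted p = 0.0323) and rose by 0.47 ± 0.10 with both agents against vehicle (adjusted p = 0.00252), and its change with myoglobin was 0.09 ± 0.10 (adjusted p = 0.587). Mmp7 shares 123 bases of exon with an antisense gene that averaged 11.8, 7.5 and 5.5 in the 3 groups. The highest value, 890, is that of the library that stood apart, in which densely covered genes were high in general. Without it the changes were 0.26 ± 0.067 (adjusted p = 0.0276) and 0.35 ± 0.067 (adjusted p = 0.00118). The call for added dexamethasone was lost without myoglobin replicate 1 (adjusted p = 0.0736), 3 (0.0996) or 4 (0.0581), and in the fit of the 2 compared groups alone (0.073).

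The other genes of the row were near the limit of measurement. Mmp12, the macrophage elastase, was tested and not called, with values of 4 to 8, 5 to 16 and 2 to 23 with both agents, with myoglobin and with vehicle. Mmp10, stromelysin-2, was listed at 0, 1, 0 and 0 with both agents, 0, 4, 9 and 6 with myoglobin, and 2, 0, 3 and 3 with vehicle. Mmp8, the neutrophil collagenase, was at 9, 9, 7 and 11 with both agents, 3, 3, 4 and 4 with myoglobin, and 8, 2, 0 and 5 with vehicle. The Mmp10 and Mmp13 values were highest in myoglobin libraries, up to 9 in each gene, and those of Mmp8 in libraries with both agents, but all 3 genes stayed below the limit for testing. Mmp27 and Mmp20, the enamel protease, did not exceed 6 and 4 in any library.

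**Figure D5:**
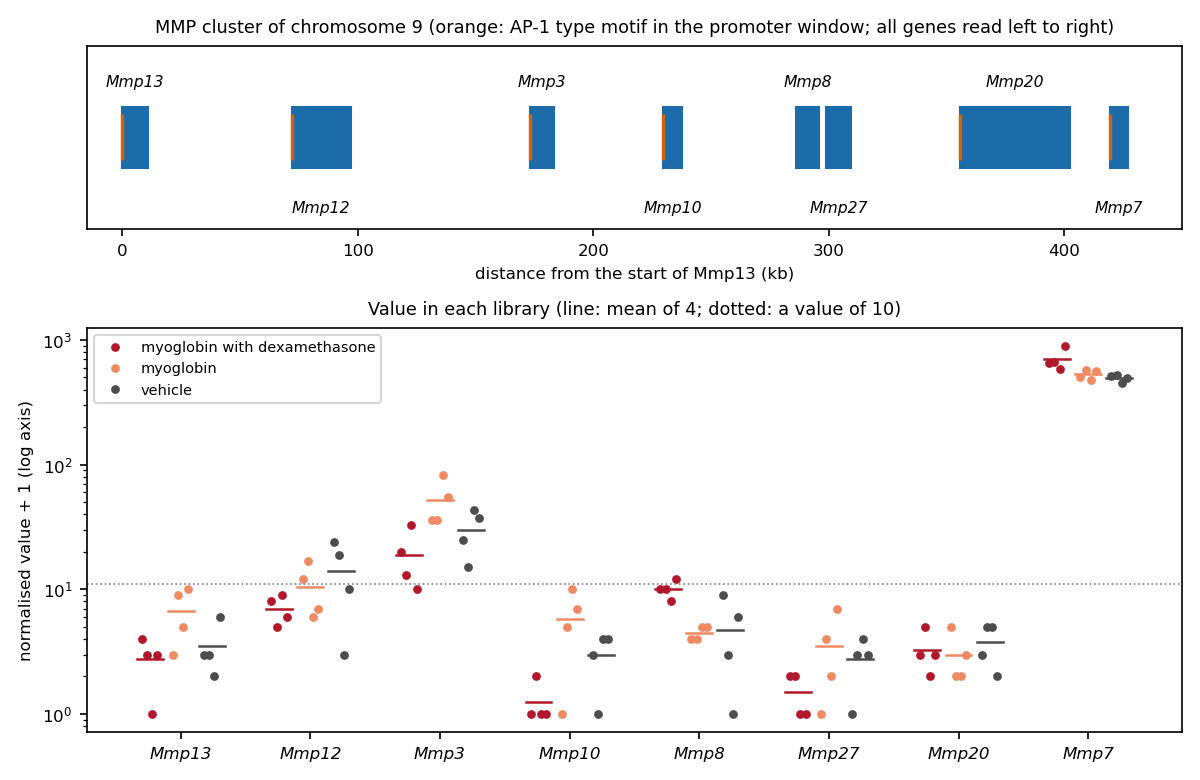
Top, the 8 MMP members on chromosome 9 by distance from the start of Mmp13 in kb, with an orange mark at the gene start where a promoter window holds the AP-1 type motif. Bottom, the deposited value plus 1 (log axis) in each library, with means as lines and a dotted line at a value of 10: Mmp3 is lowest with both agents, Mmp7 is highest with both agents at values of 587 to 890, and the 6 genes other than Mmp3 and Mmp7 stay near or below the dotted line.

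Outside the row, Mmp2, gelatinase A, rose with myoglobin. Its values were 210, 151, 222 and 128 with both agents, 261, 203, 242 and 200 with myoglobin, and 123, 88, 135 and 108 with vehicle. All myoglobin libraries were above all vehicle libraries, and the libraries with both agents overlapped each of these groups. The log2 fold change was 1.00 ± 0.17 with myoglobin against vehicle (limma adjusted p = 0.000463), 0.62 ± 0.17 with both agents against vehicle (adjusted p = 0.0113) and -0.38 ± 0.17 for added dexamethasone (adjusted p = 0.199). Mmp9, gelatinase B, varied widely within each group, with 10, 45, 17 and 35 with both agents, 49, 75, 32 and 57 with myoglobin, and 41, 58, 11 and 61 with vehicle. Its change was -1.12 ± 0.50 for added dexamethasone (adjusted p = 0.202), and it was called in none of the comparisons.

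Of the membrane-bound MMPs, Mmp14, which activates Mmp2 at the cell surface, averaged 970 ± 120 with both agents, 928 ± 46.8 with myoglobin and 932 ± 39.4 with vehicle (SD, n = 4 each). Its changes lay between -0.01 and 0.06 with an SE of 0.07, and none was called. Mmp15, a second transmembrane MMP, fell by 0.45 ± 0.13 with both agents against vehicle (limma adjusted p = 0.0137), with changes of -0.22 ± 0.13 for added dexamethasone and -0.23 ± 0.13 for myoglobin. Mmp17, which is held by a lipid anchor, had values of 28, 25, 31 and 14 with both agents, 43, 41, 33 and 48 with myoglobin, and 59, 47, 49 and 46 with vehicle. The libraries with both agents were below all others, and myoglobin overlapped vehicle. Mmp17 fell by 0.77 ± 0.21 when dexamethasone was added (adjusted p = 0.0381) and fell by 1.06 ± 0.21 with both agents against vehicle (adjusted p = 0.00168). The first of these calls was lost without vehicle replicate 2 (adjusted p = 0.0558) or 3 (0.0563), myoglobin replicate 1 (0.0799), 2 (0.09) or 4 (0.121), or replicate 2 of myoglobin with dexamethasone (0.0611), and in the fit of the 2 compared groups alone (0.0967). The value without the library that stood apart was -0.54 ± 0.16 (adjusted p = 0.0473).

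Of the secreted MMPs, Mmp28, epilysin, an epithelial member, had values of 105, 101, 96 and 90 with both agents, 88, 83, 95 and 97 with myoglobin, and 133, 112, 119 and 112 with vehicle. Both treated groups were below vehicle and overlapped each other. Mmp28 fell by 0.39 ± 0.09 with myoglobin (limma adjusted p = 0.00686) and fell by 0.28 ± 0.09 with both agents against vehicle (adjusted p = 0.0329), and the call for both agents was lost without vehicle replicate 1 (adjusted p = 0.1) or 3 (0.0692) and without replicate 3 (0.0631) or 4 (0.0664) of myoglobin with dexamethasone. It was also lost with the 2 groups fitted alone (adjusted p = 0.053) and with quantile normalization, where the change was -0.17 ± 0.09 (adjusted p = 0.182). Mmp11, stromelysin-3, fell by 0.34 ± 0.10 with both agents against vehicle (adjusted p = 0.0153). It averaged 157 ± 18.0 with both agents, 172 ± 16.1 with myoglobin and 199 ± 19.5 with vehicle (SD, n = 4 each). The remaining tested MMPs of either kind, Mmp19 and Mmp23, were called in none of the 3 comparisons.

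The 2 main sheddases had changes of at most 0.13 on the log2 scale. Adam10 had values of 1184, 1194, 1115 and 1319 with both agents, 1169, 1185, 1201 and 1147 with myoglobin, and 1164, 1148, 1137 and 1147 with vehicle. The groups overlapped, and the changes were 0.03 ± 0.04 for added dexamethasone, 0.03 ± 0.04 for myoglobin and 0.06 ± 0.04 for both agents (limma adjusted p of 0.726, 0.684 and 0.308). Adam17 had values of 908, 890, 910 and 1022 with both agents, 867, 892, 906 and 906 with myoglobin, and 824, 849, 846 and 880 with vehicle. The libraries with both agents were above vehicle, while myoglobin overlapped both. Adam17 rose by 0.13 ± 0.04 with both agents against vehicle (adjusted p = 0.0365), a change that was lost without vehicle replicate 1 (adjusted p = 0.09), 2 (0.0776) or 3 (0.0789) or myoglobin replicate 2 (0.0504), and that was 0.09 ± 0.03 (adjusted p = 0.0413) without the library that stood apart. With upper-quartile scaling, library totals, quantile normalization or the 2 groups fitted alone the adjusted p was 0.0508, 0.0733, 0.132 and 0.0817.

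In the ADAM family 12 of 16 members were tested. Added dexamethasone gave 0 calls in limma, with 2 of the 12 at an unadjusted p below 0.05. With myoglobin 2 fell, 16.7% against 18.3% of all genes, and with both agents against vehicle 1 rose and 3 fell, 33.3% against 28.6% of all genes, both shares near the background. Adam11, which has no protease activity and is known from brain, had values of 61, 65, 64 and 44 with both agents, 91, 68, 84 and 69 with myoglobin, and 129, 125, 113 and 117 with vehicle. The 3 groups did not overlap. It fell by 0.64 ± 0.13 with myoglobin (limma adjusted p = 0.00319) and fell by 1.05 ± 0.13 with both agents (adjusted p = 3.42e-05), and its change for added dexamethasone was -0.41 ± 0.13 (adjusted p = 0.0776). Adam22, also without protease activity and a receptor for LGI proteins in brain, fell by 0.89 ± 0.19 with both agents against vehicle (adjusted p = 0.00234). Its means were 34.0 ± 4.55 with both agents, 51.8 ± 4.57 with myoglobin and 65.5 ± 18.9 with vehicle (SD, n = 4 each).

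Adam5, a member known from testis, was low in all groups, at 7, 3, 9 and 5 with both agents, 7, 5, 2 and 3 with myoglobin, and 20, 18, 17 and 16 with vehicle. Vehicle was above both treated groups in every library. Adam5 fell by 1.93 ± 0.35 with myoglobin (limma adjusted p = 0.000919) and fell by 1.5 ± 0.35 with both agents (adjusted p = 0.00472). It reached 10 only in the 4 vehicle libraries, so it entered the test through the group in which it was high, and it was not tested in the 4 fits that left out a vehicle library. Adam8, Adam9, Adam12, Adam15, Adam28, Adam4 and Adam1a were called in none of the comparisons. Adam1a shares 63.65% of its exons with another gene on the same strand, so its values are uncertain. Adam8, an inflammation-linked protease, and Adam28 varied widely inside groups, at 371 to 634 and 38 to 131 with vehicle, and replicate 1 was the lowest library of each group for both.

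In the ADAMTS family, the one with the most tested members, 1 of 16 fell when dexamethasone was added, 2 rose and 5 fell with myoglobin, and 3 rose and 9 fell with both agents against vehicle. The shares were 6.25%, 43.8% and 75%, against 6.98%, 18.3% and 28.6% of all genes, so for added dexamethasone the family was near the background. The stromal marker sum given above was also lowest with both agents and highest with vehicle. The ADAMTS members did not share a single order of groups, and a link to that sum was not tested. Adamts16 had the smallest adjusted p of the family. Its values were 158, 180, 159 and 111 with both agents, 195, 183, 180 and 142 with myoglobin, and 445, 447, 387 and 357 with vehicle. Both treated groups were far below vehicle and overlapped each other. The change was -1.22 ± 0.13 with myoglobin (limma adjusted p = 7.22e-06), -1.44 ± 0.13 with both agents (adjusted p = 1.11e-06) and -0.21 ± 0.13 for added dexamethasone (adjusted p = 0.357). Adamts18, its closest relative in sequence, fell by 0.45 ± 0.11 with both agents against vehicle (adjusted p = 0.00624) and averaged 153 ± 23.3, 181 ± 9.54 and 209 ± 29.3 in the 3 groups (SD, n = 4 each).

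The proteoglycan-cutting members went both ways. Adamts1 had values of 391, 517, 452 and 533 with both agents, 499, 598, 485 and 587 with myoglobin, and 688, 763, 682 and 787 with vehicle. Vehicle was above both treated groups, which overlapped. Adamts1 fell by 0.43 ± 0.09 with myoglobin (limma adjusted p = 0.00374) and fell by 0.63 ± 0.09 with both agents (adjusted p = 0.000124). Adamts5, an aggrecan-cutting protease, lies 53.1 kb from Adamts1 on chromosome 16 and is read from the same strand. Its values were 34, 51, 37 and 21 with both agents, 51, 61, 38 and 48 with myoglobin, and 91, 98, 77 and 76 with vehicle, again with vehicle above and the treated groups overlapping. Adamts5 fell by 0.79 ± 0.22 with myoglobin (adjusted p = 0.018) and fell by 1.29 ± 0.22 with both agents (adjusted p = 0.000389), and the call for myoglobin was lost without vehicle replicate 2 (adjusted p = 0.0627) or myoglobin replicate 3 (0.0657). Adamts20, a versican-cutting member, fell by 0.85 ± 0.24 with both agents (adjusted p = 0.0156).

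Adamts15 and Adamts8, which are also proteoglycan-cutting, are neighbours on chromosome 9, 20.1 kb apart and read away from each other, and both rose. Adamts15 had values of 518, 473, 486 and 364 with both agents, 547, 535, 455 and 470 with myoglobin, and 332, 355, 365 and 341 with vehicle. Every myoglobin library was above vehicle, and the libraries with both agents overlapped vehicle through replicate 4, the library that stood apart. Adamts15 rose by 0.52 ± 0.09 with myoglobin (limma adjusted p = 0.00068) and by 0.39 ± 0.09 with both agents (adjusted p = 0.00475). Adamts8 rose by 0.83 ± 0.22 with both agents against vehicle (adjusted p = 0.00961), averaging 64.8 ± 13.1 with both agents, 55.5 ± 20.3 with myoglobin and 35.5 ± 2.65 with vehicle (SD, n = 4 each). Adamts9 and Adamts4, the other proteoglycan-cutting members tested, were not called.

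Adamts14 trims the amino end of procollagen, as Adamts2 and Adamts3 do, and had the largest rise of any member. Its values were 44, 18, 25 and 25 with both agents, 42, 46, 27 and 27 with myoglobin, and 10, 11, 10 and 8 with vehicle. Both treated groups were above vehicle and overlapped each other. Adamts14 rose by 1.73 ± 0.26 with myoglobin (limma adjusted p = 0.000184) and rose by 1.37 ± 0.26 with both agents (adjusted p = 0.00111). Adamts2 averaged 9.75 ± 3.59, 8.5 ± 2.38 and 5.0 ± 0.816 in the 3 groups (SD, n = 4 each) and was not called. Adamts3 was too low to be tested, with values of 2 to 7 with both agents, 2 to 7 with myoglobin and 6 to 16 with vehicle. Of the 3 procollagen-trimming genes Adamts14 was thus the one that was called.

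Adamts6, Adamts10 and Adamts17 also fell. Adamts6 had values of 13, 14, 10 and 11 with both agents, 15, 13, 8 and 8 with myoglobin, and 20, 17, 23 and 24 with vehicle, with vehicle above both treated groups. Adamts6 fell by 0.91 ± 0.24 with myoglobin (limma adjusted p = 0.0143) and fell by 0.76 ± 0.24 with both agents (adjusted p = 0.0279), and the call for both agents was lost without vehicle replicate 3 (adjusted p = 0.0736) or 4 (0.0759) or replicate 3 of myoglobin with dexamethasone (0.0668), and with quantile normalization (0.0935). Adamts10, a relative of Adamts6 that binds fibrillin, fell by 0.24 ± 0.06 with both agents (adjusted p = 0.00597). Adamts17 had values of 24, 19, 17 and 25 with both agents, 28, 29, 27 and 19 with myoglobin, and 54, 45, 41 and 34 with vehicle, which was above both. Adamts17 fell by 0.73 ± 0.19 with myoglobin (adjusted p = 0.015) and fell by 1.00 ± 0.19 with both agents (adjusted p = 0.00138), and the call for myoglobin was lost without vehicle replicate 1 (adjusted p = 0.0562) or myoglobin replicate 4 (0.0536), and with quantile normalization (0.0512).

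Adamts7, which cuts cartilage oligomeric matrix protein, was the ADAMTS member called when dexamethasone was added. Its values were 91, 71, 77 and 76 with both agents, 132, 125, 98 and 96 with myoglobin, and 116, 116, 101 and 86 with vehicle. The libraries with both agents were below those with myoglobin and overlapped vehicle. Adamts7 fell by 0.50 ± 0.13 when dexamethasone was added (limma adjusted p = 0.029) and fell by 0.40 ± 0.13 with both agents against vehicle (adjusted p = 0.0309). The first call was lost without myoglobin replicate 1 (adjusted p = 0.0831) or 2 (0.0968) and without replicate 2 (0.074) or 3 (0.061) of myoglobin with dexamethasone, and also with quantile normalization (0.0529) and the 2 groups fitted alone (0.0501). The second was lost without vehicle replicate 1 (adjusted p = 0.0828), 2 (0.0962) or 3 (0.0561) and without replicate 2 (0.0771), 3 (0.0579) or 4 (0.0511) of myoglobin with dexamethasone, and with quantile normalization (-0.28 ± 0.13, adjusted p = 0.123). Adamts19 was tested and not called. Of the 5 ADAMTS-like genes, Adamtsl4 and Adamtsl5 were tested, with 0 calls in limma and 1 change at an unadjusted p below 0.05, for myoglobin.

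The 16 members below the filter were 6 MMPs, 4 ADAMs, 2 ADAMTS proteases, 3 ADAMTS-like genes and Timp4, and 0 of the 61 members were listed at 0 in every library. Their values ranged from 0 to 16. Of these, Adam19, Adam21, Adam32, Adam33 and Adamts12 did not exceed 5 in any library, nor did Adamtsl3. Adamtsl2 was at 0 to 10 with both agents, 1 to 4 with myoglobin and 7 to 13 with vehicle, and like Adamts3 it reached 10 in 3 libraries, where the filter asked for 4. Mmp13 stayed at 0 to 3, 2 to 9 and 1 to 5 in the same groups, Mmp24 at or below 9 and Adamtsl1 at or below 6.

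Genes that act with the members were counted from lists chosen with earlier results known. Their counts are to be read against the 6.98% of all genes called for added dexamethasone, 18.3% for myoglobin and 28.6% for both agents, with medians of 0.006, 0.003 and 0.002 on the log2 scale, and the lists are small. The plasminogen system, whose plasmin activates MMP precursors, had 5 tested genes of 8. Plat, tissue plasminogen activator, rose by 0.27 ± 0.06 with myoglobin and by 0.36 ± 0.06 with both agents against vehicle, and Plau, the urokinase type, fell by 0.54 ± 0.13 with both agents (adjusted p = 0.00677). With dexamethasone added, 0 of the 5 were called in limma and 1 had an unadjusted p below 0.05. Of 8 tested inhibitors other than TIMPs, Spock2, a testican, fell by 1.10 ± 0.21 with myoglobin and fell by 1.26 ± 0.21 with both agents, Tfpi2, a serine protease inhibitor of the matrix, fell by 0.95 ± 0.25 and 0.85 ± 0.25, and Papln, papilin, rose by 0.34 ± 0.055 and 0.46 ± 0.055, while Spint2, a blocker of hepsin, rose by 0.33 ± 0.085 with both agents. With dexamethasone added, 0 of these 8 were called in limma and 1 had an unadjusted p below 0.05.

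Of 11 other extracellular proteases tested, 2 rose and 1 fell when dexamethasone was added, where 6.98% of all genes were called, and the median changes were 0.11, -0.08 and 0.06 in the 3 comparisons. Hpn, hepsin, rose by 0.17 ± 0.05 (limma adjusted p = 0.048), and the other two, named after their values were seen, were Furin, which activates several ADAM and MMP precursors and rose by 0.28 ± 0.06 (adjusted p = 0.00767), and Ctss, cathepsin S, which fell by 0.68 ± 0.18 (adjusted p = 0.032). With myoglobin 2 of the 11 fell, Dpp4, a surface dipeptidase, by 0.40 ± 0.05 and Pcsk5, a proprotein convertase, by 0.58 ± 0.09. With both agents against vehicle 4 rose and 2 fell, against 28.6% of all genes called, and Ctsb, cathepsin B, rose by 0.33 ± 0.08 (adjusted p = 0.00528). The sheddases need partner proteins, and of 8 tested 2 rose and 1 fell when dexamethasone was added, 1 rose and 1 fell with myoglobin, and 2 rose and 2 fell with both agents, with median changes of 0.04, 0.01 and 0.05. Tspan15, a tetraspanin that guides Adam10, rose by 0.27 ± 0.05 when dexamethasone was added (adjusted p = 0.00291) and fell by 0.45 ± 0.05 with myoglobin (adjusted p = 6.28e-06). Tspan15 averaged 1098 ± 45.9 with both agents, 910 ± 19.1 with myoglobin and 1242 ± 80.7 with vehicle (SD, n = 4 each). Tspan5, another partner of Adam10, fell by 0.57 ± 0.099 when dexamethasone was added (adjusted p = 0.00276), and Tspan33 rose by 0.16 ± 0.04 (adjusted p = 0.0352). Rhbdf2, which carries Adam17 to the cell surface, rose by 0.32 ± 0.05 with myoglobin (adjusted p = 0.000457).

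Among 15 tested substrates of shedding, 1 rose and 1 fell when dexamethasone was added, 2 rose and 4 fell with myoglobin, and 3 rose and 5 fell with both agents, with median changes of -0.08, -0.11 and -0.12. These stand against 6.98%, 18.3% and 28.6% of all genes called. Tnf, the classical Adam17 substrate, rose by 1.34 ± 0.04 with myoglobin (limma adjusted p = 9.33e-12) and averaged 430 ± 11.7 with both agents, 460 ± 7.94 with myoglobin and 181 ± 4.79 with vehicle (SD, n = 4 each). Il6ra, a receptor shed from the surface, rose by 0.79 ± 0.09 with myoglobin (adjusted p = 1.48e-05). L1cam, an adhesion molecule, fell in all 3 comparisons, by 0.43 ± 0.06 for added dexamethasone (adjusted p = 0.000503), by 0.39 ± 0.06 for myoglobin (adjusted p = 0.000225) and by 0.82 ± 0.06 for both agents (adjusted p = 1.04e-07). Btc, a growth factor of the epidermal growth factor family, fell by 0.48 ± 0.085 with myoglobin and fell by 0.68 ± 0.085 with both agents. Of 6 tested ADAMTS substrates, 2 fell when dexamethasone was added, 1 rose and 1 fell with myoglobin, and 4 fell with both agents, with medians of -0.56, 0.00 and -0.60. Thbs1, thrombospondin-1, fell in all 3 comparisons, by 0.35 ± 0.06, 0.38 ± 0.06 and 0.73 ± 0.06 in the order just used (adjusted p of 0.00363, 0.000513 and 6.81e-07). Fbn1, fibrillin-1, fell by 1.10 ± 0.23 when dexamethasone was added (adjusted p = 0.00866). Vcan, versican, rose by 0.57 ± 0.14 with myoglobin (adjusted p = 0.00726), and Bgn, biglycan, fell by 0.96 ± 0.25 with both agents (adjusted p = 0.0097).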

How the data were processed

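Messenger RNA of 12 tubuloid libraries, 4 per treatment, was sequenced from stranded libraries, per the labels' protocols. Per the submitters' processing notes the authors used the mouse build mm10 and the tools featureCounts 2.0.3, STAR 2.7.10a, DESeq2 1.36.0, Trimmomatic 0.39 and Picard 2.27.4, whose roles and order are not given in the sources used here. The deposited whole numbers are treated as a normalised score and not as counts, because in each library they skip or double values at regular steps, as reads divided by a size factor and rounded would. Size factors read from these steps were 0.904, 0.971, 1.04 and 0.568 in replicates 1 to 4 of myoglobin with dexamethasone and 0.988 to 1.11 in the other libraries, and precision is limited by the estimated reads and by 4 libraries per group.

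Changes were tested with limma-trend (limma 3.58.1, R 4.3.3) after adding 1 to each value and taking log2, with the 3 groups fitted together and 1 shared estimate of the spread, two-sided, Benjamini-Hochberg adjusted over the 14558 genes that reached 10 in 4 or more libraries, and called below 0.05. The pseudocount understates changes of low genes. The fit was also run on simulated data, with the same spread setting for all genes and no library that stood apart. That run checks the code and does not show how the fit behaves on these data. Alternatives were pseudocounts of 0.1 and 10, no filter, upper-quartile, total and quantile scaling, library weights, a fit on the 2 compared groups, the replicate number as a block, and leaving out each library. Exonic lengths came from GENCODE M21, where 20592 genes (98.9%) have the same coordinates. Promoter windows were matched by symbol for 39 of the 61 members. Tables and plots used Python 3.11.15, pandas 2.3.3 and matplotlib 3.10.9.

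Members, companion lists and marker lists were chosen with earlier results of these data known. Every called member is named, with Timp1 to Timp4, Mmp2, Mmp9, Mmp14, Adam10 and Adam17 whatever their result. Values in every library are given for members called in 2 or more comparisons or changed by at least 1 on the log2 scale, for the TIMPs, Mmp7, Adam10 and Adam17. Of each companion list up to 4 called genes with the smallest adjusted p are named, except for a result that is not reported here. Library values of Mmp8, Mmp9 and Mmp10 were added after they were seen.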

Additional observations from a re-analysis of the deposited data

Results flagged for a closer look

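Among 63 sets of 4 library values of the named members, 2 had a library separated from the other 3 by more than the critical share of the range in Dixon's test, and chance gives about 1 in 20. Adam17 was at 1022 in replicate 4 of myoglobin with dexamethasone, where the nearest library was at 910. Timp4 was at 1 in replicate 3 of myoglobin, where the other 3 libraries were at 2, a difference of a single unit in a gene below the limit for testing.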

How the results depend on the processing

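Of the 41 called changes of named members, 355 of 369 values under the 9 alternatives other than leaving out a library kept their direction and their call, 14 lost the call and 0 changed sign; of 414 values of the uncalled changes, 26 gained a call. Leaving out 1 library kept 444 of 484 values and lost 40. For added dexamethasone, 1 of 5 called members was called in every such fit that tested it. The same held for 10 of 12 for myoglobin and 19 of 24 for both agents against vehicle. The 10 and the 19 include Adam5, which was tested in only 8 of these fits. Over the fits that left out 1 library, the members called higher and lower numbered 0 to 1 and 1 to 5 for added dexamethasone, 3 to 4 and 7 to 11 for myoglobin, and 5 to 8 and 14 to 18 for both agents against vehicle. The higher member for added dexamethasone was lost without myoglobin replicate 1, 3 or 4, and the lower ones numbered 2 without myoglobin replicate 1, 2 or 4 and 1 without replicate 2 of both agents.

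For added dexamethasone, 0 members were higher when the 2 compared groups were fitted alone, and for myoglobin 5 were higher with quantile normalization. The replicate numbers were not taken as pairs, because the labels do not tie them to mice and not every same-numbered pair passed 0.1. Deviations of same-numbered libraries correlated at -0.0151 to 0.379, 0.0953 to 0.456 and 0.0224 to 0.289 for added dexamethasone, myoglobin and both agents. Differently numbered libraries correlated at -0.289 to 0.196, -0.403 to 0.0869 and -0.305 to 0.0774 in the same comparisons. For myoglobin every same-numbered pair thus lay above every other pair, so a pairing that the fit leaves out is possible. Each number correlated best with itself for myoglobin, a hint from the data, but number 3 did not in the other 2 comparisons. With the replicate block, 2 members were higher and 13 lower for added dexamethasone, 6 and 14 for myoglobin, and 7 and 22 for both agents. Members that were not called above but were with the block included Adamts1 (adjusted p = 0.0108), Mmp2 (0.0117) and Mmp9 (0.0184) for added dexamethasone, and Timp2 (0.00523) for both agents.

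Some changes that were called in neither fit changed sign. For added dexamethasone these were Adam10, at -0.04 with quantile normalization, -0.01 with library weights and -0.01 to 0.07 over the fits without 1 library; Mmp14, at -0.02 with weights and -0.03 to 0.09 over those fits; and Timp2, at -0.14 to 0.04. For myoglobin they were, with quantile normalization, Adam10 at -0.01, Adamts20 at 0.06 and Timp1 at 0.06. Over the fits without 1 library, Adamts20 ranged over -0.24 to 0.06, Mmp9 over -0.04 to 0.75 and Timp1 over -0.24 to 0.02, and Mmp14 was at 0.00 to 0.01 without vehicle replicate 3 or 4 or myoglobin replicate 1 or 2. For both agents against vehicle, Adam10 was at -0.04 with quantile normalization, and Mmp14 at -0.03 with quantile normalization, at -0.03 with weights and at -0.03 to 0.09 without 1 library. The causes were not tested. Depth limits the 16 members below the filter, which could not be tested.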

Other observations

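Some members ordered the libraries alike in all 3 groups. Replicate 1 was the lowest library of each group for 3 members, Adam28, Adam8 and Timp2, and the highest for 5 members, Adamts10, Adamts18, Adamts19, Adamts20 and Adamts9. Only replicate 1 was counted in this way, and the same was not counted over all genes. Over all genes tested, the deviations of the replicate 1 libraries correlated at 0.379, 0.456 and 0.289 for added dexamethasone, myoglobin and both agents. Such an order need therefore not be particular to the members. Whether a number stands for a mouse is not given in the labels, and no explanation was tested.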
